A study of Mus musculus with 9 samples.

Results

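Calcium enters mitochondria through 2 membranes, and the 7 genes described here, measured in mouse hippocampus, encode parts of that route. *Mcu* encodes the pore of the uniporter in the inner membrane, *Micu2* and *Micu3* encode EF-hand proteins that gate the pore, and *Letm1* encodes an inner membrane protein of cation exchange. *Vdac1*, *Vdac2* and *Vdac3* encode the voltage-dependent anion channels of the outer membrane. The genes were taken by name: every non-control probe whose annotated gene name was one of the 7 was included. This gave 9 probes of 39429 on the array, for 7 gene names of 31093. All 9 probes passed the filter on dim probes, and 7 were well above background on all 9 arrays.

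RNA came from the hippocampus of male mice on a C57BL/6J background aged 9 months. There were 3 IF1-KO, 3 CRL and 3 IF1-TG mice, with 1 single-dye Agilent array per mouse. The paper lists different source strains for the IF1-KO and IF1-TG lines. IF1, encoded by *Atpif1*, is the protein that inhibits the mitochondrial ATP synthase. IF1-KO mice carry floxed *Atpif1* and a *Camk2a*-Cre, so the gene is lost from forebrain excitatory neurons while glia and most other cells of the tissue keep it. IF1-TG mice carry a human IF1 transgene of the Tet system, switched by a *Camk2a*-driven transactivator, so its expression too is largely neuronal. CRL are the control mice, and the sources used here do not give the alleles that these 3 animals carried. In whole hippocampus, fewer cells of a type cannot be told apart from less RNA per cell.

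In neurons, mitochondria near synapses and at contacts with the endoplasmic reticulum take up calcium that enters during activity. The uptake is driven by the voltage across the inner membrane, and calcium in the matrix stimulates several dehydrogenases that feed the respiratory chain. The regulatory MICU proteins keep the pore closed at resting calcium and open it when calcium rises, and MICU3 is known as a form enriched in brain. VDACs pass calcium, ATP and other metabolites across the outer membrane and bind hexokinases on the cytosolic side.

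Each probe is a single 60-base spot sequence. The probes of *Mcu* and *Letm1* are shown because both genes have 2 probes that behaved differently. The VDAC probes are shown because related genes could share signal. *Mcu* A_55_P2141068 and *Letm1* A_65_P11059 are printed whole, and the others by their last 30 bases, 5′ to 3′, with any AATAAA, the usual signal for polyadenylation, in capitals.
Mcu A_55_P2141068: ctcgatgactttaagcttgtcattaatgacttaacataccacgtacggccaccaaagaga
Mcu A_55_P2066563: aaacagctattctctgccttcactaaacaa
Letm1 A_65_P11059: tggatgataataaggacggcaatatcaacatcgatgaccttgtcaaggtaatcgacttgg
Letm1 A_51_P315144: gaatatacctgaggctttgtgtggcttgta
Vdac1 A_55_P1992445: tgtaattaacatcacttaaAATAAAacttg
Vdac2 A_55_P1992450: atgatgaaatagacgtttatgaaaaccgtg
Vdac3 A_55_P1992455: tggttttgcatcagagtaaAATAAAcccat

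The *Vdac1* and *Vdac3* probes hold AATAAA, as do 12.6% of all probes on the array when read on the probe strand. The longest run that any 2 probes of different member genes share is 10 bases, between *Micu3* and *Mcu* A_55_P2066563, and *Vdac1* and *Vdac3* share 9. No member probe shares a run of 16 bases with another probe of the array. The annotation of the array, on mm9, places *Mcu* A_55_P2141068 at chr10:58929203-58929262 on the minus strand. The other *Mcu* probe lies at chr10:58920575-58920634 on the same strand and is annotated to a predicted transcript variant. *Micu2* was read at chr14:58535588-58535646 (minus), *Micu3* at chr8:41467471-41467530 (plus), *Vdac1* at chr11:52202820-52202879 (plus) and *Vdac2* at chr14:22664682-22664741 (plus). *Letm1* A_51_P315144 lies at chr5:34084209-34084268 (minus), and A_65_P11059 is left unmapped. The *Vdac3* probe is placed at chr13:18122167-18122226, whereas RefSeq has *Vdac3* on chromosome 8, and which locus gives its signal was not tested.

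The arrays were on 3 slides. IF1-TG replicates 1 and 2 had slide 1 to themselves, whereas slide 2 carried all 3 genotypes (IF1-KO replicate 1, 2 CRL arrays and IF1-TG replicate 3) and slide 3 the remaining IF1-KO and CRL arrays. Between 66.8% and 74.9% of probes per array were well above background, with the lowest shares on the IF1-TG arrays. Signals are log2 processed intensities from which the 75th percentile of the same array was subtracted, so 0 stands for that percentile. The *Atpif1* probe read 6.43 on the array labelled IF1-KO replicate 1, between the lowest (6.19) and the highest (6.51) of the CRL and IF1-TG arrays. It read 5.20 and 5.53 on IF1-KO replicates 2 and 3. For this reason every member is also given with that array left out between IF1-TG and IF1-KO. Between IF1-KO and CRL the range over the members is given. Of 7 hippocampal subfield markers measured, all passed the filter, as did all 9 neuron markers. The summed signals of the neuron markers were 197 to 228 in IF1-TG and 193 to 196 in IF1-KO. Those of 8 microglia markers were 56.1 to 66.1 and 46.2 to 52.9, and of 8 oligodendrocyte markers 138.04 to 172 and 92.0 to 137.92. All were higher in IF1-TG with no overlap, and 0 of these markers passed the thresholds in that comparison. By sign, 8 of 9 neuron, 6 of 8 microglia and 5 of 8 oligodendrocyte markers were higher. In CRL the sums were 175 to 205, 53.1 to 59.5 and 127 to 162, overlapping IF1-TG. Sums of 7 astrocyte markers overlapped, at 44.0 to 50.4 in IF1-TG and 39.9 to 45.2 in IF1-KO. Of 5 endothelium markers, 1 was above 0 between IF1-TG and IF1-KO. Only 1 of the 7 subfield markers was above 0 in each comparison with CRL, and their summed signal was 8.68 to 14.0 in IF1-TG, 10.2 to 11.0 in IF1-KO and 11.5 to 14.4 in CRL. All 5 thalamus markers kept were higher in IF1-TG than in IF1-KO by sign, with a summed signal of 6.97 on IF1-TG replicate 2 and at most 3.70 on any other array, and 1 passed the thresholds against CRL. The summed signal of 6 choroid plexus markers, in multiples of the 75th percentile, was 1.88 to 94.8 in IF1-KO, 2.91 to 117 in CRL and 4.56 to 174 in IF1-TG mice, with 1 high array in each genotype. Of 7 striatum markers, all had negative log2 differences in both comparisons with CRL, and 1 passed the thresholds in each. Their summed signal ran from 9.92 to 14.6 in IF1-TG, from 11.8 to 13.1 in IF1-KO and from 13.0 to 22.5 in CRL. The part of these tissues in the results was not tested.

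**Figure D1:**
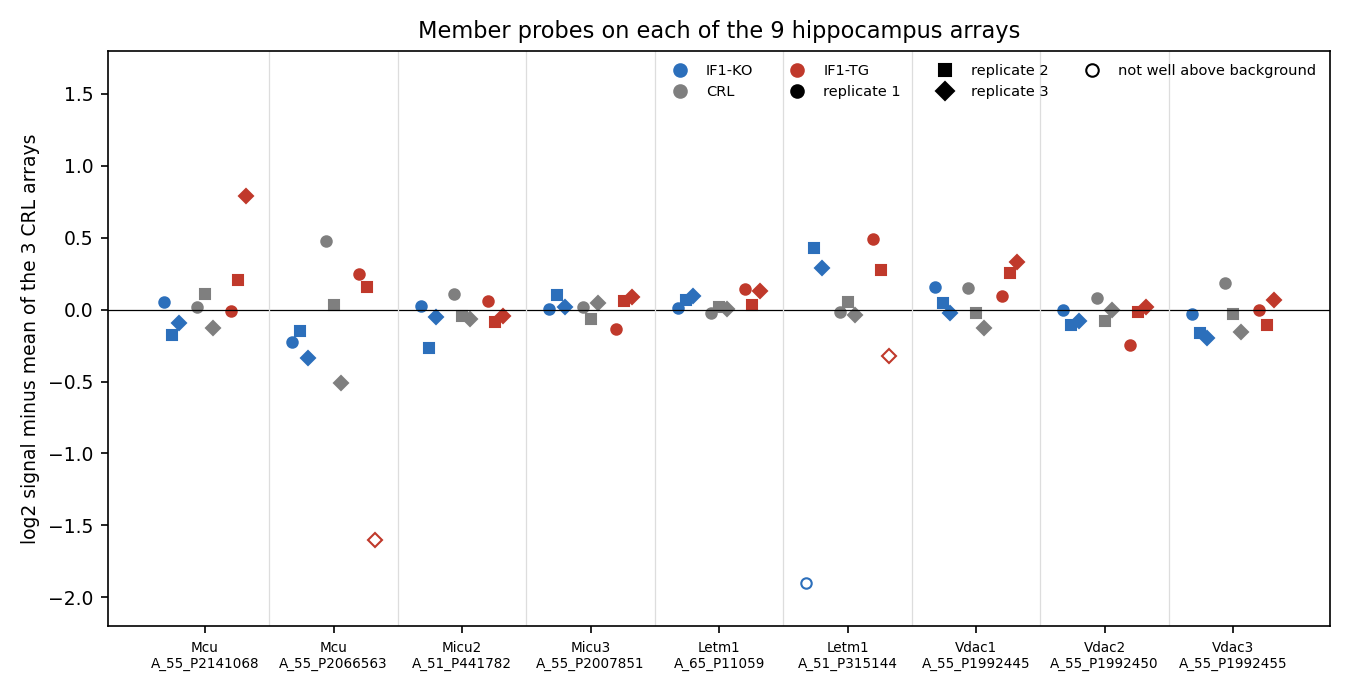
Signal of the 9 member probes on each array, as the log2 signal minus the mean of the 3 CRL arrays for that probe (vertical axis), by gene and probe (horizontal axis). Colours are genotypes, shapes are replicate numbers and open symbols are spots not well above background. Most points lie within 0.3 of the CRL mean, and IF1-TG replicate 3 is far above it on one *Mcu* probe and far below it on the other.

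None of the 7 genes passed the study's thresholds, a fold change of at least 1.5 with an unadjusted P value below 0.05 in limma, in any of the 3 comparisons. For IF1-TG against IF1-KO the count was 0 of 7, where 4.69% of all 21924 genes tested passed. It was 0 of 7 between IF1-TG and CRL, where 5.59% of all genes passed, and 0 of 7 between IF1-KO and CRL, where 1.34% passed. At an unadjusted P value below 0.05 with no fold threshold the counts of members were also 0, against 8.83%, 10.5% and 3.23% of all genes. With 7 genes and such shares, a count of 0 does not set the members apart from other genes. The counts over all genes also depended on single arrays. For IF1-TG against IF1-KO there were 1029 calls, 605 when IF1-KO replicate 2 was left out and 1705 when IF1-TG replicate 2 was. For IF1-TG against CRL there were 1226, and 1909 when IF1-TG replicate 2 was left out. For IF1-KO against CRL there were 294, with 178 when CRL replicate 1 was left out and 1008 when CRL replicate 3 was. Taking the brightest probe for each gene, the 95% confidence interval lay inside a 1.5-fold change either way for 6 of 7 genes between IF1-TG and IF1-KO, for 6 of 7 between IF1-TG and CRL, and for all 7 between IF1-KO and CRL. *Mcu* was the exception in both comparisons with IF1-TG.

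The median log2 difference over the members was 0.074 between IF1-TG and IF1-KO, beside 0.0065 over all genes tested. Between IF1-TG and CRL it was 0.0047 for the members and -0.00086 for all genes. Between IF1-KO and CRL it was -0.062 for the members and -0.0083 for all genes. By sign, 5 of 7 members were above 0 in the first comparison, 4 of 7 in the second and 3 of 7 in the last.

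**Figure D2:**
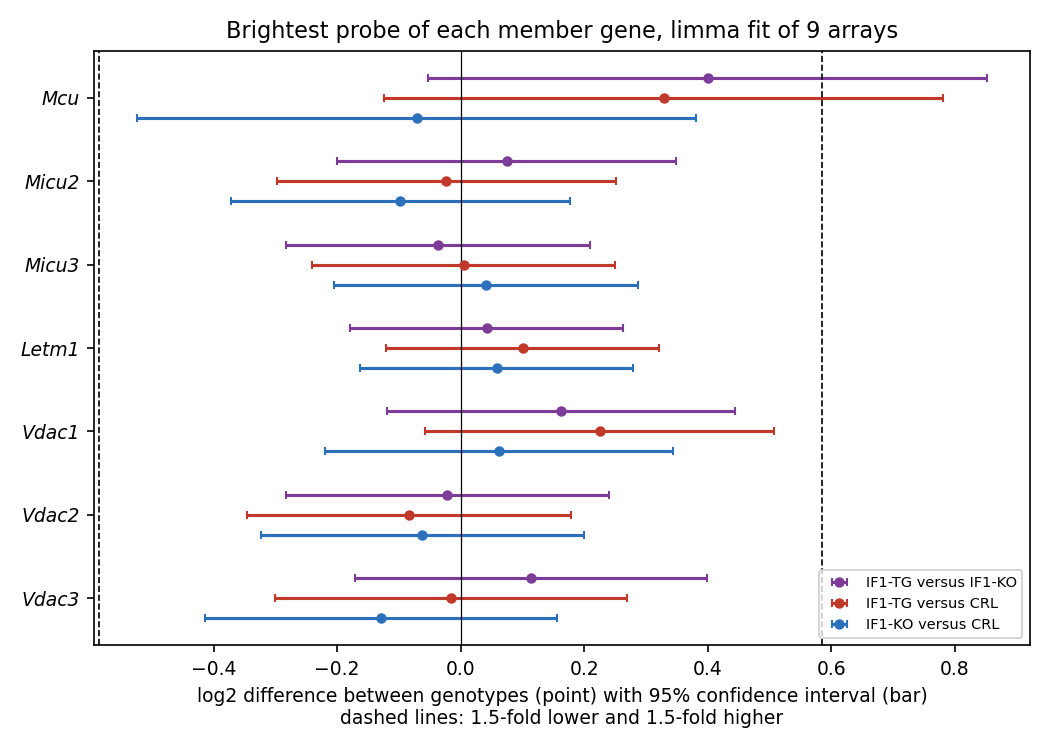
Log2 difference between genotypes (horizontal axis) of the brightest probe of each member gene (vertical axis), in the 3 comparisons, with bars for the 95% confidence interval from limma on 9 arrays. The intervals all include 0. Those of *Mcu* in the comparisons with IF1-TG reach past the dashed line for 1.5-fold higher.

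*Mcu*, the pore of the uniporter, was dim on both probes. The brighter, A_55_P2141068, had processed intensities of 59.1 to 97.9, where the lowest intensity well above background was 5.33 to 10.6 per array, and was well above background on all 9 arrays. Its log2 signal was -4.72, -4.95 and -4.86 on the IF1-KO arrays, -4.76, -4.67 and -4.90 on the CRL arrays, and -4.78, -4.57 and -3.99 on the IF1-TG arrays. IF1-TG replicate 3 stood above all others, IF1-TG replicate 1 lay among the IF1-KO and CRL values, and the genotypes overlapped. The log2 difference between IF1-TG and IF1-KO was 0.40 (standard error 0.20, 1.32-fold, interval 0.964 to 1.81-fold, limma adjusted P = 0.713). Between IF1-TG and CRL it was 0.33 (standard error 0.20, limma adjusted P = 0.676), and between IF1-KO and CRL -0.071 (standard error 0.20), which ran from -0.13 without IF1-KO replicate 1 or CRL replicate 3 to -0.017 without CRL replicate 2 and -0.018 without IF1-KO replicate 2.

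The size of the *Mcu* difference depended on which IF1-TG arrays were used. Without IF1-TG replicate 3, it was 0.17 against IF1-KO and 0.099 against CRL. Without IF1-TG replicate 1, it was 0.57 and 0.50, with unadjusted P values from limma of 0.0190 and 0.0332 (adjusted P = 0.903 and 0.680) and a change below 1.5-fold. Normexp background correction together with quantile normalization gave 0.18 and 0.16. With slide as a fixed block it was 0.73 against IF1-KO and 0.72 against CRL, with unadjusted P values from limma of 0.00447 and 0.00316, so *Mcu* then passed the thresholds in both comparisons (adjusted P = 0.567 and 0.250). In that fit 6.41% and 9.93% of all genes passed. There the slides that hold IF1-TG together with another genotype reduce to slide 2, whose only IF1-TG array is replicate 3. Leaving out any 1 array gave no call.

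The second *Mcu* probe, A_55_P2066563, did not follow the first. It read -5.81, -5.73 and -5.92 in IF1-KO, -5.11, -5.55 and -6.09 in CRL, and -5.33, -5.42 and -7.18 in IF1-TG. Here IF1-TG replicate 3 was the lowest array, where the first probe had it highest, and on it the spot was not well above background. The log2 difference between IF1-TG and IF1-KO was -0.16 (standard error 0.47), and between IF1-TG and CRL -0.40 (standard error 0.47). With the mean of both probes in place of the brighter one, the difference of *Mcu* was 0.12 between IF1-TG and IF1-KO and -0.035 between IF1-TG and CRL. The within-genotype SD of the second probe was 0.67, larger than that of 95.5% of kept probes, and that of the first was 0.26, near the median of 0.24.

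*Micu2*, whose protein helps to hold the pore shut at low calcium, had a bright and steady probe. It read 0.71, 0.42 and 0.64 in IF1-KO, 0.79, 0.64 and 0.62 in CRL, and 0.75, 0.60 and 0.64 in IF1-TG. The genotypes overlapped, with IF1-KO replicate 2 the lowest array. The differences were 0.074 between IF1-TG and IF1-KO, -0.023 between IF1-TG and CRL and -0.098 between IF1-KO and CRL (standard error 0.12 each). The interval of the first ran from 0.871 to 1.27-fold. Without IF1-KO replicate 2 the last was -0.012.

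*Micu3* varied even less. Its probe read -2.37, -2.28 and -2.36 in IF1-KO, -2.36, -2.44 and -2.34 in CRL, and -2.51, -2.32 and -2.29 in IF1-TG. The genotypes overlapped, and the 9 arrays spanned a range of 0.23. The differences were -0.037 between IF1-TG and IF1-KO, 0.0047 between IF1-TG and CRL and 0.041 between IF1-KO and CRL (standard error 0.11 each). Its within-genotype SD was 0.082, and 4.74% of kept probes had a smaller one.

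*Letm1* was the steadiest of the members on its brighter probe, A_65_P11059. It read 2.39, 2.45 and 2.47 in IF1-KO, 2.36, 2.40 and 2.38 in CRL, and 2.52, 2.41 and 2.51 in IF1-TG. All 3 IF1-TG arrays were above all 3 CRL arrays, the only case among the 9 member probes in any comparison where genotypes did not overlap. In that comparison 12.2% of probes with values on all arrays did not overlap, so 1 of 9 member probes is near the background. The other comparisons had 0 of 9, with backgrounds of 13.6% between IF1-TG and IF1-KO and 8.00% between IF1-KO and CRL. The log2 difference was 0.10 (standard error 0.097, interval 0.920 to 1.25-fold, limma adjusted P = 0.803). Against IF1-KO, IF1-TG differed by 0.042 (standard error 0.097), or by 0.077 without IF1-TG replicate 2. This was 0.16 under normexp background correction together with quantile normalization and 0.29 with the mean of both probes. IF1-KO differed from CRL by 0.058, which became -0.17 with the mean of both probes and was also below 0 under that correction and normalization. The SD within genotypes was 0.044, and 0.382% of kept probes had a smaller one.

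The other *Letm1* probe, A_51_P315144, was dim. It read -7.65, -5.32 and -5.46 in IF1-KO, -5.76, -5.69 and -5.79 in CRL, and -5.25, -5.47 and -6.07 in IF1-TG. The lowest values in IF1-KO and in IF1-TG are from replicate 1 and replicate 3, where the spot was not well above background. The differences, of 0.54 between IF1-TG and IF1-KO, 0.15 between IF1-TG and CRL and -0.39 between IF1-KO and CRL, had a standard error of 0.55.

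*Vdac1*, the most studied of the outer membrane channels, had the largest difference among the bright members. Its probe read 5.55, 5.44 and 5.36 in IF1-KO, 5.54, 5.36 and 5.26 in CRL, and 5.48, 5.64 and 5.71 in IF1-TG. IF1-TG replicates 2 and 3 were the highest arrays, but IF1-TG replicate 1 fell below IF1-KO replicate 1 and CRL replicate 1. The log2 difference was 0.22 between IF1-TG and CRL (standard error 0.12, 1.17-fold, interval 0.961 to 1.42-fold, limma adjusted P = 0.659). It was 0.16 between IF1-TG and IF1-KO (standard error 0.12), a value that turned to -0.034 with normexp background correction and quantile normalization, and 0.062 between IF1-KO and CRL. On slide 2 alone, the 1 IF1-TG array exceeded the mean of the 2 CRL arrays by 0.26.

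*Vdac2*, the isoform known for binding the apoptosis effector BAK, read 4.0, 3.90 and 3.92 in IF1-KO, 4.08, 3.92 and 4.0 in CRL, and 3.75, 3.98 and 4.02 in IF1-TG. IF1-TG replicate 1 was the lowest array and the others were interleaved. The differences were -0.021 between IF1-TG and IF1-KO, -0.084 between IF1-TG and CRL and -0.062 between IF1-KO and CRL (standard error 0.11 each). *Vdac3* read 3.94, 3.82 and 3.78 in IF1-KO, 4.16, 3.95 and 3.82 in CRL, and 3.97, 3.87 and 4.04 in IF1-TG. The genotypes overlapped, with CRL replicate 1 the highest array. The differences were 0.11 between IF1-TG and IF1-KO, -0.015 between IF1-TG and CRL and -0.13 between IF1-KO and CRL (standard error 0.12 each). Without CRL replicate 1 the last was -0.036, and without CRL replicate 3 it was -0.21. The *Vdac2* difference between IF1-TG and CRL was -0.0015 without IF1-TG replicate 1, and that between IF1-KO and CRL was -0.021 without CRL replicate 1 and -0.10 without CRL replicate 2.

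Leaving out an IF1-KO array changed no call of a member gene. With the array labelled IF1-KO replicate 1 left out, log2 differences between IF1-TG and IF1-KO were 0.46 for *Mcu*, 0.14 for *Micu2*, -0.054 for *Micu3* and 0.020 for *Letm1*. For the channels they were 0.21 for *Vdac1*, 0.0093 for *Vdac2* and 0.16 for *Vdac3*, and only that of *Vdac2* changed its sign. Between IF1-KO and CRL, without the same array, they ran from -0.18 for *Vdac3* to 0.081 for *Letm1*, with -0.16 for *Micu2*. The smallest limma adjusted P value of a member was then 0.984.

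The ratio of 2 probes within an array does not depend on how that array is scaled, and only its change between arrays has a meaning. The log2 ratio of *Vdac1* to *Vdac2* was 1.55, 1.54 and 1.44 in IF1-KO, 1.46, 1.44 and 1.26 in CRL, and 1.73, 1.66 and 1.70 in IF1-TG. All 3 IF1-TG arrays were above every other array. The mean ratio in IF1-TG exceeded that in CRL by 0.31 (standard error 0.066) and that in IF1-KO by 0.18 (standard error 0.039). Each gave P = 0.1 in a two-sided exact permutation test, the smallest value that 3 against 3 arrays allow, and 0.225 after adjustment over the 9 tests of 3 ratios in 3 comparisons. When *Vdac1* was set against every other kept probe in turn, the ratio was higher without overlap for 23.7% of probes between IF1-TG and CRL and for 16.1% between IF1-TG and IF1-KO. The ratio difference against IF1-KO turned to -0.14 under normexp background correction and quantile normalization, and that against CRL was then 0.22.

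The ratio of *Vdac1* to *Vdac3* was 1.60, 1.62 and 1.58 in IF1-KO, 1.38, 1.42 and 1.44 in CRL, and 1.51, 1.77 and 1.67 in IF1-TG. Here CRL was below both other genotypes with no overlap. The difference was 0.24 for IF1-TG against CRL (standard error 0.079) and 0.19 for IF1-KO against CRL (standard error 0.022), with P = 0.1 in the two-sided exact permutation test for both (0.225 adjusted). *Vdac1* was higher without overlap against 10.3% of all other probes between IF1-KO and CRL. Under normexp background correction together with quantile normalization the last difference was 0.33, and that of IF1-TG against IF1-KO turned from 0.049 to -0.17. The value of 0.049 became -0.013 when IF1-TG replicate 2 was left out and 0.12 when IF1-TG replicate 1 was. The ratio of *Vdac2* to *Vdac3* overlapped between all genotypes, with differences of -0.14, -0.068 and 0.068 in IF1-TG against IF1-KO, IF1-TG against CRL and IF1-KO against CRL. With 1 array left out the first ran from -0.22 to -0.048, lowest without IF1-TG replicate 2 and highest without IF1-TG replicate 1. The second ran from -0.15 to 0.020 in the same way, highest without IF1-TG replicate 1. It was 0.0082 without CRL replicate 3 and 0.024 within slide 2. The last ran from 0.015 to 0.14 with 1 array left out and was -0.068 within slide 3. Within slide 2, *Vdac2* alone differed by -0.0023 and *Vdac3* by -0.11 between IF1-KO and CRL. These ratios were computed after the values of the members had been seen.

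**Figure D3:**
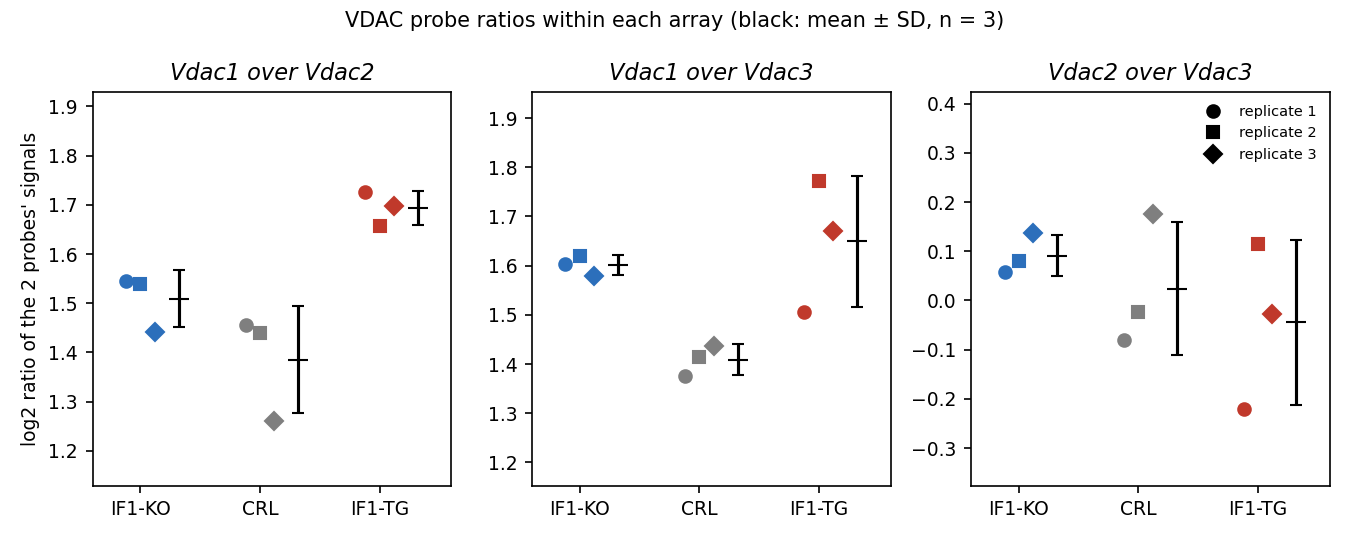
Log2 ratio of the signals of 2 VDAC probes (vertical axis) on each array, by genotype (horizontal axis), with circles, squares and diamonds for replicates 1, 2 and 3 and black bars for the mean ± SD of 3 arrays. The ratio of *Vdac1* to *Vdac2* is highest on the 3 IF1-TG arrays, at 1.66 to 1.73, and that of *Vdac1* to *Vdac3* is lowest on the 3 CRL arrays, at 1.38 to 1.44.

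Of 10 other genes of the uniporter and of calcium exchange in the matrix, on 12 kept probes, 0 passed the thresholds in any comparison, where 4.69%, 5.59% and 1.34% of all genes did. An unadjusted P value below 0.05 was reached by 0, against 8.83%, 10.5% and 3.23% of all genes, so with 10 genes these counts do not set the group apart. On the brightest probe, between IF1-TG and CRL, the log2 difference was 0.16 (standard error 0.16) for *Smdt1*, which encodes EMRE, a subunit that the pore needs to conduct. It was -0.18 (standard error 0.33) for *Ccdc109b*, the older name of the pore paralog *Mcub*, and -0.11 (standard error 0.16) for *Mcur1*, a scaffold of the complex. *Slc8b1*, the sodium-calcium exchanger that lets calcium out of the matrix, differed by 0.0080 (standard error 0.16). *Slc25a23*, a calcium-binding ATP-Mg and phosphate carrier, differed by 0.086, *Letm2* by 0.20, *Letmd1* by 0.068 and *Ghitm* by -0.14. *Ucp2*, an inner membrane carrier, differed by 0.41 (standard error 0.39), with 1 IF1-TG array at -0.52 and the other two at -1.99 and -1.96.

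Of 47 related genes in all, on 64 kept probes, the thresholds were met by 0 for IF1-TG against IF1-KO and by 0 for IF1-KO against CRL. The first count was 3 when IF1-TG replicate 2 was left out, 1 when IF1-KO replicate 2 or 3 was, and 2 with slide as a fixed block, where 6.41% of all genes passed. The second was 1 when IF1-KO replicate 2 or CRL replicate 3 was left out. Only *Mfn2*, which tethers mitochondria to the endoplasmic reticulum, passed between IF1-TG and CRL, 1 of 47 where 5.59% of all genes passed. The call came from the dimmest of its 4 probes, A_55_P2172742, with -3.98, -4.24 and -4.51 in CRL and -3.43, -4.19 and -3.22 in IF1-TG. The genotypes overlapped, and the log2 difference was 0.63 (standard error 0.27, limma adjusted P = 0.581). The other 3 *Mfn2* probes gave -0.11, -0.13 and -0.24, and the list had 0 calls under normexp background correction together with quantile normalization, in the fit of only the 2 genotypes and with the mean of probes.

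Of the 47 genes, 2 reached an unadjusted P value below 0.05 between IF1-TG and IF1-KO and 4 between IF1-TG and CRL, against 8.83% and 10.5% of all genes. They are named here after their values were seen. *Tomm40*, the channel of the protein import pore in the outer membrane, was in both sets. Its brightest probe read 2.37, 2.22 and 2.08 in IF1-KO, 1.91, 2.17 and 2.00 in CRL, and 2.53, 2.56 and 2.68 in IF1-TG. All IF1-TG arrays were above all others, by a log2 mean of 0.57 against CRL (standard error 0.12, 1.48-fold, limma adjusted P = 0.371) and 0.37 against IF1-KO (limma adjusted P = 0.660). In these comparisons 12.2% and 13.6% of probes with values on all arrays did not overlap. The other *Tomm40* probe gave 0.013 against CRL and -0.090 against IF1-KO. *Itpr2*, an inositol trisphosphate receptor of the endoplasmic reticulum, differed by 0.51 between IF1-TG and IF1-KO. *Afg3l2*, a protease that processes EMRE, differed by 0.56 between IF1-TG and CRL, and *Pdp2*, a phosphatase of pyruvate dehydrogenase, by 0.25. For *Afg3l2* and *Pdp2*, too, all IF1-TG arrays were above all others, and for *Itpr2* above all IF1-KO arrays. None of these passed the adjustment for multiple testing.

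**Figure D4:**
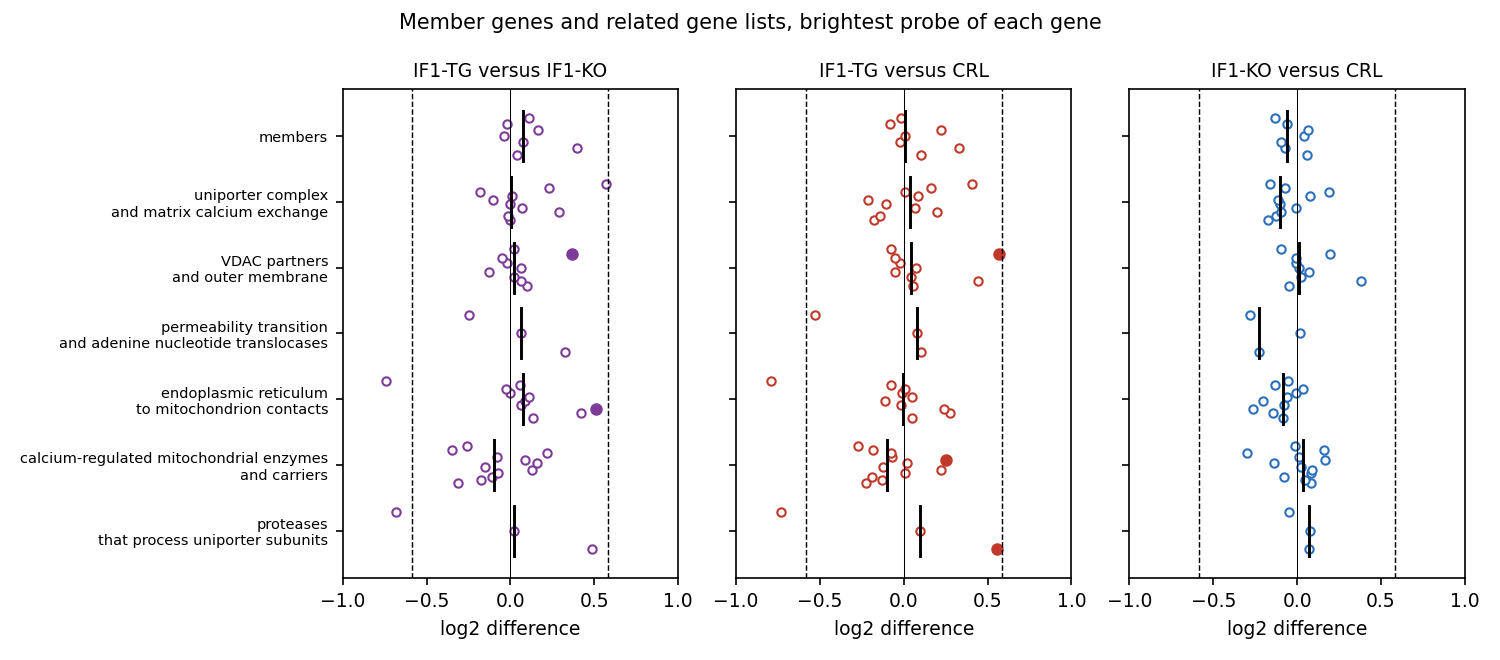
Log2 difference (horizontal axis) of the brightest probe of each gene in the member list and 6 related lists (vertical axis), in the 3 comparisons. Filled points have an unadjusted P value below 0.05, black bars are medians and dashed lines mark 1.5-fold. No member point is filled, and the points of the related lists lie on both sides of 0.

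By the pattern over the 9 arrays, the brightest probes most like each member, among 21676 genes compared, were those of *Rpl31* and *Kcnk12* for *Mcu* (Pearson r of 0.978 and 0.969). For *Micu2* they were LOC100862466 and *Enpp4* (0.968 and 0.959), and for *Micu3* *Ldb2* and *Cntnap4* (0.988 and 0.974). For *Letm1* they were *Ankrd52* (0.963) and the transcript ENSMUST00000170221 (0.962). For the channels they were *Gm4146* and *Pak4* for *Vdac1* (0.941 and 0.935), *Pdzd3* and *Rph3al* for *Vdac2* (0.959 and 0.954), and *Kifap3* and *Zcchc17* for *Vdac3* (0.963 and 0.951). These are the highest of many correlations over 9 arrays that share slides, and none of the genes named is another member.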

How the data were processed

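Per the file headers, the authors read each of the 9 arrays with Agilent Feature Extraction 10.7.3.1, which subtracted the background and trends within an array and did not normalize between arrays. From the deposited processed intensity, log2 was taken and the 75th percentile of each array subtracted. The deposited mean and background intensities were used with normexp (offset 50) as an alternative. Outlier and control spots were left out, and no spot was saturated. The filter kept 28011 of 39429 probes (21924 gene names), those well above background in every replicate of 1 or more genotypes. A model with genotype was fitted to all 9 arrays in limma 3.58.1 (R 4.3.3), with thresholds from the methods and Benjamini-Hochberg adjustment over all kept probes. The normalization is not given in the sources used here. The steps were tested on simulated data. Named genes are the members, *Atpif1*, the uniporter group (1 gene of it, counted in the totals, is not reported here), related genes past the thresholds and the 2 most correlated genes per member; 4 related genes below an unadjusted P of 0.05 were added after their values were seen. Single values are from the probe with the highest mean signal. The members and lists were chosen with earlier results of these data known. The alternatives were normexp with quantile normalization, quantile normalization, median centring, other filters on dim probes, slide and replicate blocks, fits of 2 genotypes, trend and robust eBayes, the mean of probes, other call rules and each array left out. The replicates are separate mice, whose number limits the precision.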

Additional observations from a re-analysis of the deposited data

How the results depend on the processing

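The number of member genes past the thresholds stayed at 0 in all 3 comparisons under the alternatives tried, with slide as a fixed block as the exception, where it was 1 (*Mcu*) between IF1-TG and IF1-KO and 1 between IF1-TG and CRL, in a fit where 1406 and 2177 of all 21924 genes passed. It was 0 whichever array was left out. The replicate numbers were not treated as pairs. Deviations of same-numbered arrays correlated from -0.165 to 0.116, and not every array correlated best with its own number. Those of arrays on the same slide from different genotypes correlated from -0.118 to 0.229. With so few arrays, such correlations cannot show whether the mice were paired. With the replicate number as a block, 0 members passed. Several differences changed sign without a call, among them *Mcu* between IF1-TG and CRL (0.33) and *Vdac1* between IF1-TG and IF1-KO (0.16), which were not near 0. With normexp background correction and quantile normalization these were *Micu3* (0.11), *Vdac1* (-0.034) and *Vdac2* (0.10) between IF1-TG and IF1-KO, *Micu2* (0.064) and *Vdac3* (0.010) between IF1-TG and CRL, and *Letm1* (-0.022) and *Micu3* (-0.079) between IF1-KO and CRL. With slide as a fixed block they were *Micu2* (-0.036), *Micu3* (0.086) and *Vdac2* (0.045) between IF1-TG and IF1-KO, and *Vdac3* (0.0043) between IF1-TG and CRL. *Micu3* between IF1-TG and CRL was -0.018 with quantile normalization and -0.020 with median centring. The mean of probes gave -0.035 for *Mcu* between IF1-TG and CRL and -0.17 for *Letm1* between IF1-KO and CRL. The dimmer probes that enter these means gave -0.40 and -0.39, each with 1 spot not well above background among the arrays compared. The cause of the sign changes was not tested. With 1 array left out, the differences between IF1-TG and IF1-KO ran from -0.011 to 0.14 for *Micu2*, from -0.078 to 0.032 for *Micu3* and from -0.071 to 0.061 for *Vdac2*. Between IF1-TG and CRL they ran from -0.065 to 0.031 for *Micu2*, from -0.037 to 0.073 for *Micu3* and from -0.094 to 0.078 for *Vdac3*. *Vdac1* between IF1-KO and CRL ran from -0.0024 to 0.14. Calls over all genes were 557, 557 and 158 for IF1-TG against IF1-KO, IF1-TG against CRL and IF1-KO against CRL with normexp background correction and quantile normalization, and 3114, 4526 and 723 with no filter on dim probes. With 1 array left out they ran from 605 to 1705, from 971 to 1909 and from 178 to 1008. Beside the arrays named above for these counts, IF1-TG replicate 3 (1586 in the first) and IF1-KO replicate 1 (452 in the last) moved them by over 1.5 times. The related list had 1 call between IF1-TG and CRL, 6 of 47 with slide as a fixed block, where 9.93% of all genes passed, and 0 to 3 with 1 array left out, the 0 when IF1-KO replicate 1 or 3 was dropped and the 3 when IF1-TG replicate 2 was. With no filter on dim probes the list had 2 calls between IF1-TG and IF1-KO and 2 between IF1-TG and CRL. The second *Mcu* probe was not well above background on 1 array, which limits what it shows.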
